A study of Mus musculus with 8 samples.

Results

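The insulin-like growth factor (IGF) system was followed through 10 genes: the ligands Igf1 and Igf2, the receptors Igf1r and Igf2r, and the binding proteins Igfbp2, Igfbp3, Igfbp4, Igfbp5, Igfbp6 and Igfbp7. They were picked by symbol, and all 10 were found among the 23420 gene symbols of the count tables. All 10 also passed the filter on low counts, which kept 14598 genes. The 8 libraries hold RNA of mouse uterine stromal cells at day 3, with 4 from the Erbb3f/f genotype and 4 from Erbb3d/d. Here f usually stands for a loxP-flanked (floxed) allele of Erbb3, and d for the form left once Cre has cut it. The labels name neither the Cre line nor an age, do not say what day 3 is counted from, and do not say whether a library comes from 1 animal or a pool. The p-values therefore measure only the spread between these libraries, which may be partly technical.

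IGF ligands are small secreted proteins that signal through the receptor tyrosine kinase encoded by Igf1r, while the product of Igf2r takes up IGF2 and carries it to lysosomes for breakdown. Most extracellular IGF is held by IGF-binding proteins, which limit access to the receptor until proteases such as pappalysin release the ligand. In the mouse uterus, stromal cells make IGF1 in response to oestrogen, and this IGF1 is known as a paracrine signal to the epithelium.

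Each library held 8578575 to 12854367 reads assigned to genes. Erbb3 itself did not stand lower in the Erbb3d/d libraries (9.63 ± 2.24 CPM in Erbb3f/f against 13.9 ± 4.55 CPM, SD, n = 4 each; CPM is counts per 1000000 reads, scaled for library composition), so Erbb3d/d below means the libraries labelled so. The stromal markers Hoxa10 and Pdgfra were abundant in every library, at 481 to 1129 and 519 to 998 CPM. Markers of other cells were present too, and none of the defining markers Epcam, Krt8, Myh11, Tagln, Pecam1 and Ptprc was at 0. Of 15 epithelial markers 13 were higher in Erbb3d/d, with a summed level of 976 to 1583 CPM in Erbb3f/f and 1491 to 2437 CPM in Erbb3d/d. Of 12 smooth muscle markers 11 were higher, with 1831 to 3039 CPM in Erbb3f/f and 2950 to 6149 CPM in Erbb3d/d. Of 14 uterine stromal markers 9 were lower, and their mean log2 level was 9.72 ± 0.0919 in Erbb3f/f against 9.53 ± 0.160 (SD, n = 4 each). Erbb3d/d replicates 3 and 4 stood apart from the other 6 libraries. They had the highest epithelial means (6.53 and 6.62) and the lowest stromal means (9.51 and 9.31). Their means over 12 cell cycle genes were also the highest, at 5.46 and 5.41 against 4.31 to 4.82 in the other 6.

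Igf1, the main stromal ligand, was about 2 times as abundant in Erbb3f/f as in Erbb3d/d. Igf1 lies on chromosome 10 at 87858265 to 87937042 on the plus strand (GRCm38, GENCODE vM21), in 8 merged exons. Igf1 levels were 1402, 1572, 1823 and 1455 CPM in Erbb3f/f replicates 1 to 4, from 12884 to 23234 reads. The Erbb3d/d libraries, in the same order, had 787, 1074, 708 and 416 CPM, from 4749 to 9220 reads. Every Erbb3f/f library lay above every Erbb3d/d library, with Erbb3d/d replicate 2 the closest to them and replicate 4 the farthest. Mean levels were 1563 ± 187 CPM in Erbb3f/f against 746 ± 271 CPM (SD, n = 4 each). This is a ratio of 0.477 and a log2 fold change of -1.07 (SE 0.24; Erbb3d/d over Erbb3f/f throughout). By the edgeR quasi-likelihood test over all 14598 genes Igf1 was not called (adjusted p = 0.216), and 0% of the genes tested were. Among all genes tested, 0.891% had a log2 fold change of -1 or less, and 2.48% had all Erbb3d/d libraries below all Erbb3f/f libraries.

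The difference in Igf1 was read beside the stromal markers of the same libraries. In bulk RNA, fewer cells of a type and less RNA per cell cannot be told apart. The log2 ratio of Igf1 to Pdgfra, a receptor of stromal fibroblasts, was 0.65, 0.73, 0.87 and 0.83 in Erbb3f/f replicates 1 to 4. The same ratio was 0.21, 0.58, 0.45 and -0.44 in Erbb3d/d replicates 1 to 4, so that the genotypes did not overlap. Against Hoxa10, a homeobox gene of uterine stroma, the log2 ratio was 0.43 to 0.69 in Erbb3f/f and -0.21 to 0.35 in Erbb3d/d. Igf1 was thus lower relative to both stromal markers in all 4 Erbb3d/d libraries. Both markers were themselves lower in Erbb3d/d (log2 fold changes of -0.56 for Pdgfra and -0.54 for Hoxa10), while 5 of the 14 stromal markers were higher. The log2 level of Igf1 minus the mean of all 14 was 0.68 to 1.08 in Erbb3f/f and -0.61 to 0.41 in Erbb3d/d. The epithelial and stromal marker levels were also added to the fit, each in turn. Fitted beside the epithelial mean, Igf1 had a log2 fold change of -0.58 (SE 0.25), and beside the stromal mean, chosen after the data were seen, the value was -0.65 (SE 0.21). Without Erbb3d/d replicates 3 and 4, also chosen after the data were seen, the value was -0.75 (SE 0.17). In these 3 edgeR fits the adjusted p was 0.629 or more. Whether Igf1 was called changed with the tool and with a single library. It was called by DESeq2 (adjusted p = 0.00163), where it called 0.381% of genes as lower and 1.78% in either direction. edgeR called it when Erbb3d/d replicate 2 was left out (adjusted p = 0.0221), where 0.785% of genes were called as lower and 1.75% in either direction.

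**Figure D1:**
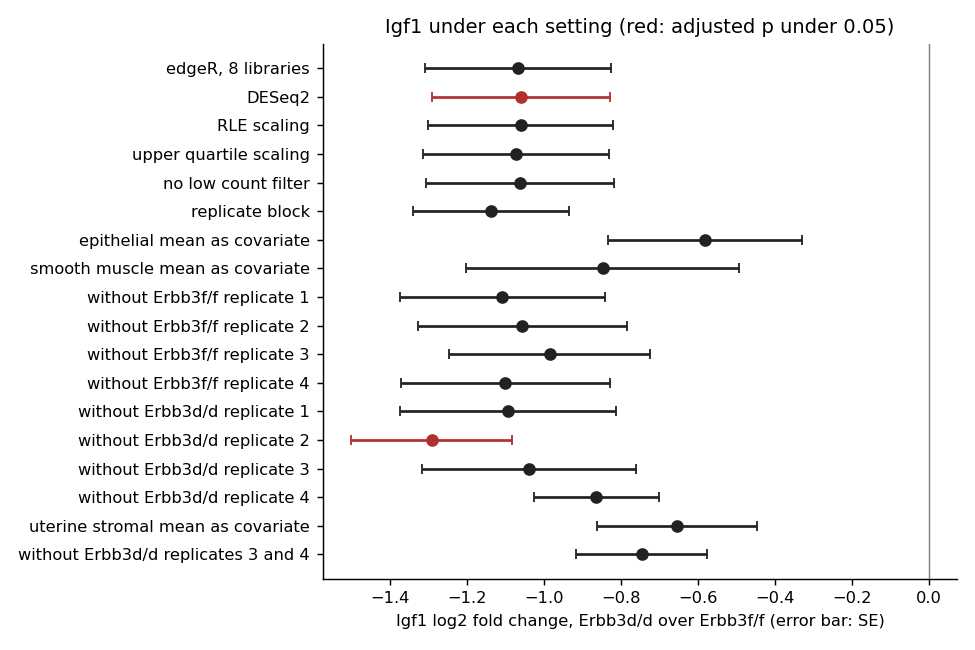
Igf1 log2 fold change (Erbb3d/d over Erbb3f/f, x axis, bars are SE) under each setting (y axis), with settings in red where the adjusted p was under 0.05. Every point lies below 0, from -1.29 without Erbb3d/d replicate 2 to -0.58 with the epithelial mean as a covariate, and 2 alternatives are red.

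Igf2, the other ligand, was scarce and showed no difference beyond its spread. Igf2 is an imprinted gene with its main role in fetal growth, and it spans chromosome 7 from 142650766 to 142666816 (minus strand). Its levels were 8.95, 5.96, 16.8 and 7.34 CPM in Erbb3f/f replicates 1 to 4 and 16.3, 9.21, 7.40 and 8.50 CPM in Erbb3d/d replicates 1 to 4. The genotypes overlapped widely, and 1 library of each stood above the rest (Erbb3f/f replicate 3 and Erbb3d/d replicate 1). Its log2 fold change was 0.07 (SE 0.36; edgeR, adjusted p = 0.956). Fitted beside the epithelial mean, Igf2 had 0.92 (SE 0.36; unadjusted p = 0.0268; edgeR, adjusted p = 0.999), and leaving out 1 library gave -0.23 to 0.48. H19, the non-coding RNA next to Igf2 that shares its imprinting control, was also highest in those libraries of each genotype, at 70.6 and 22.8 CPM against 8.08 to 19.2 CPM in the other 6. H19 was singled out after its values were seen. In the annotation 3596 of the 5723 exonic bases of Igf2 are shared with Gm49394 on the same strand and 98 with Igf2os on the other strand, so its count is uncertain. Igf1 made up 98.4% to 99.3% of the summed ligand level per kilobase of exon in Erbb3f/f and 96.5% to 98.5% in Erbb3d/d.

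**Figure D2:**
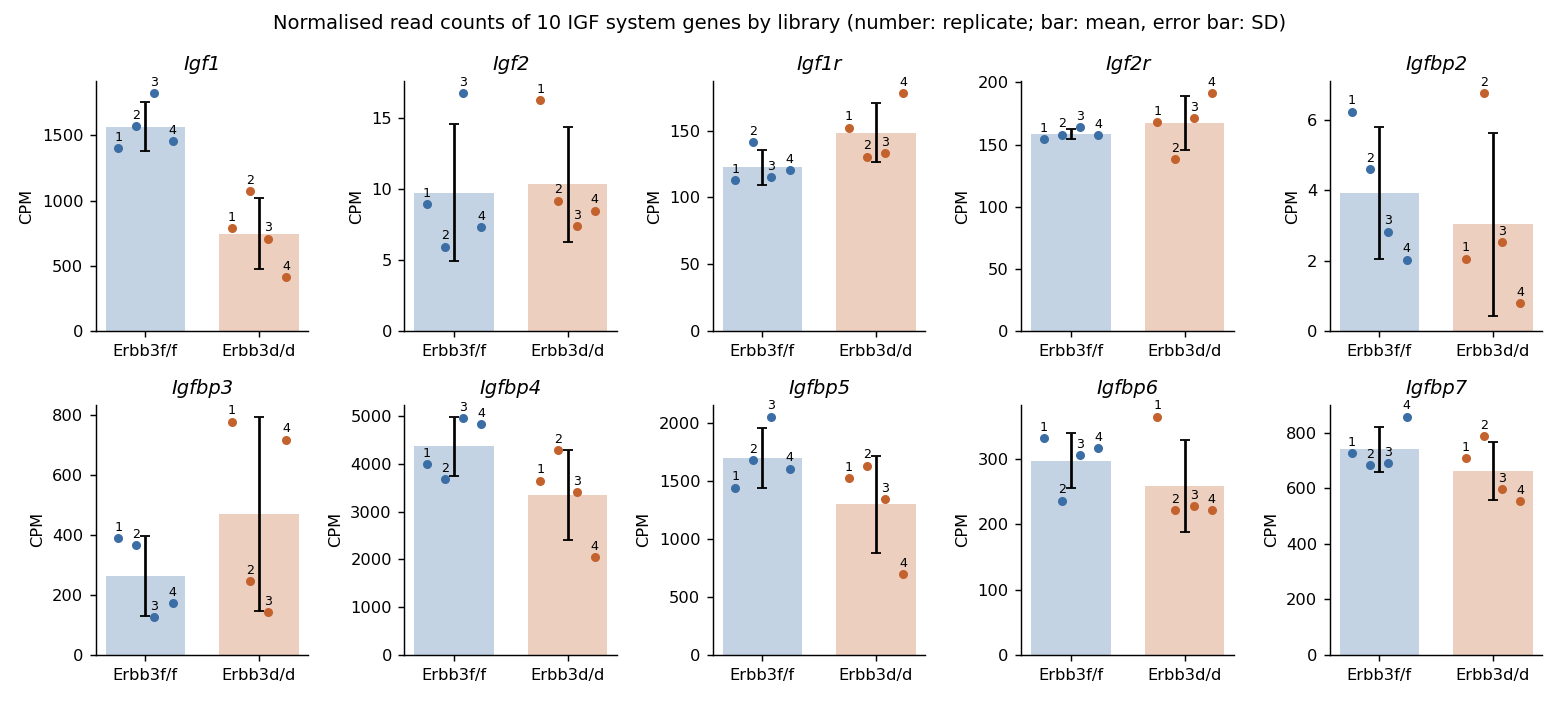
CPM (y axis) of the 10 genes in each library, by genotype (x axis). Points are libraries with their replicate number, bars are means and error bars SD. Igf1 is the only panel in which the genotypes do not overlap (1402 to 1823 against 416 to 1074 CPM).

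The receptors were steadier than the ligands. Igf1r, the signalling receptor, lies on chromosome 7 at 67952827 to 68233668 with 21 merged exons. It was read at 113, 141, 115 and 120 CPM in Erbb3f/f replicates 1 to 4 and at 152, 131, 133 and 178 CPM in Erbb3d/d replicates 1 to 4. Erbb3f/f replicate 2 reached into the Erbb3d/d range, and the other 3 Erbb3f/f libraries lay below it. Igf1r had a log2 fold change of 0.28 (SE 0.12), an unadjusted p of 0.0381 and, after adjustment in edgeR, an adjusted p of 0.408. An unadjusted p under 0.05 with a higher level in Erbb3d/d was found for 6.64% of all genes tested, so 1 such value among 10 genes is near the background. Fitted beside the smooth muscle mean, its log2 fold change was 0.12 (SE 0.17), and beside the stromal mean 0.094 (SE 0.13).

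Igf2r, the receptor that clears IGF2, lies on chromosome 17 at 12682406 to 12769664 with 49 merged exons. It was read at 155, 158, 164 and 158 CPM in Erbb3f/f replicates 1 to 4, the narrowest spread of the 10 genes. In Erbb3d/d replicates 1 to 4 it was read at 168, 139, 171 and 191 CPM, on both sides of the Erbb3f/f values. A log2 fold change of 0.08 (SE 0.10) was estimated (edgeR, adjusted p = 0.803). Set against Igf1r, the ligand Igf1 had a log2 ratio of 3.48 to 3.99 in Erbb3f/f and of 1.22 to 3.04 in Erbb3d/d. That ratio did not overlap between the genotypes and was lowest in Erbb3d/d replicate 4, where Igf1 was lowest and Igf1r highest. Igf1 alone did not overlap either, and Igf1r tended the other way, so the ratio adds no separate result.

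The 6 binding proteins made up most of the IGF system's transcripts once counts were divided by exon length. In Erbb3f/f the order of levels per kilobase of exon was Igfbp4 (988 ± 141 CPM per kb), Igfbp7 (612 ± 67.0), Igfbp5 (283 ± 43.1), Igfbp6 (268 ± 38.0), Igf1 (158 ± 18.9), Igfbp3 (84.2 ± 42.7), Igf2r (17.0 ± 0.426), Igf1r (7.29 ± 0.770), Igfbp2 (2.12 ± 1.02) and Igf2 (1.71 ± 0.847), all mean and SD with n = 4. Of the neighbours in this order, Igfbp5 with Igfbp6 and Igfbp2 with Igf2 overlapped across the 4 libraries, and the other neighbours did not. In Erbb3d/d the order began with Igfbp4 (758 ± 213 CPM per kb) and Igfbp7 (547 ± 87.4), whose libraries overlapped. Igfbp3 (151 ± 104) then stood above Igf1 (75.3 ± 27.3) in the mean, the reverse of Erbb3f/f, although the libraries of both overlapped there.

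Igfbp4 and Igfbp5 had the most similar profiles of any pair among the 10 genes. Both bind IGF1 and IGF2, and both are cleaved by pappalysin. Their log2 levels, centred over the 8 libraries, differed by a root mean square of 0.147, against 0.159 for the next closest pair, Igf1r and Igf2r. Igfbp4 lies on chromosome 11 at 99041244 to 99054392 on the plus strand with 8 merged exons, and Igfbp5 spans chromosome 1 from 72857932 to 72874884 (minus strand) with 4. The stretch before each start site is shown because these genes varied together across libraries. Each sequence is 200 bases long, ends 21 bases before the RefSeq start site (GRCm38.p6), reads 5′ to 3′ on the gene's strand, and touches no annotated exon. Capitals mark matches on either strand to the TATA box (letters TATAAA), to a variant of it (letters TATTTAA) or to the E box (letters CANNTG):
Igfbp4 (chr11:99041024-99041223, plus strand): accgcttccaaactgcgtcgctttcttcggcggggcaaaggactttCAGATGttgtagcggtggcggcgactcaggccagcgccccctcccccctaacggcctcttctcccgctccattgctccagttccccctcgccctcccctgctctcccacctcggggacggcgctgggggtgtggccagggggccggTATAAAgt
Igfbp5 (chr1:72874886-72875085, minus strand): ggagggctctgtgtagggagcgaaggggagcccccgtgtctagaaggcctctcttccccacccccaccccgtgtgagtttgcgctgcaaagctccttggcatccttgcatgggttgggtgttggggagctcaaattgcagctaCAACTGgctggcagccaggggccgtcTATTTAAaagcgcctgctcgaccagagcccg
The TATAAA of Igfbp4 began 28 bases before its RefSeq start site, and the TATTTAA of Igfbp5 began 51 bases before its own. For Igfbp5 the RefSeq start is at 72874865, while the GENCODE span given above starts at 72874884 on the minus strand. The TATTTAA therefore lies closer to the GENCODE start than to the RefSeq start. The letters TATTTAA were added to the search after the sequence was read. Of 32851 RefSeq windows of the same length and position, 10.3% held the TATA box letters, 3.38% those of the variant and 58.6% an E box. A match of letters describes the sequence and shows no binding.

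Igfbp4 was read at 3988, 3681, 4955 and 4822 CPM in Erbb3f/f replicates 1 to 4 and at 3644, 4283, 3412 and 2051 CPM in Erbb3d/d replicates 1 to 4. Erbb3d/d replicate 4 was far below all other libraries, replicates 1 and 3 lay just under the Erbb3f/f range, and replicate 2 lay within it. Igfbp4 had a log2 fold change of -0.38 (SE 0.21; edgeR, adjusted p = 0.513). Igfbp5 was read at 1444, 1683, 2057 and 1609 CPM in Erbb3f/f replicates 1 to 4 and at 1529, 1634, 1344 and 698 CPM in Erbb3d/d replicates 1 to 4. Erbb3d/d replicate 4 was again the lowest library, and replicates 1 and 2 were within the Erbb3f/f range. Igfbp5 had a log2 fold change of -0.38 (SE 0.24; edgeR, adjusted p = 0.553). Without Erbb3d/d replicate 4 the log2 fold changes were -0.20 for Igfbp4 and -0.17 for Igfbp5, and beside the stromal mean they were 0.075 and 0.046. Beside the epithelial mean they were -0.067 and 0.11. Hoxa10 was likewise lowest in Erbb3d/d replicate 4 (481 CPM).

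Igf1 differed by more than Igfbp5 in the same libraries. The log2 ratio of Igf1 to Igfbp5 was -0.04, -0.10, -0.17 and -0.14 in Erbb3f/f replicates 1 to 4. The Erbb3d/d libraries had -0.96, -0.60, -0.92 and -0.75. The ratio was steady within Erbb3f/f and lower in every Erbb3d/d library, with no overlap. Igf1 alone did not overlap either. The ratio was singled out after the values were seen because Igfbp5 is the gene among the 10 whose profile was closest to that of Igf1 (root mean square difference 0.363).

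Igfbp3 varied more between libraries than any other of the 10 genes. It encodes the main carrier of IGF in blood and spans chromosome 11 from 7206086 to 7213923 (minus strand), with 5 merged exons. Levels of Igfbp3 were 389, 366, 125 and 173 CPM in Erbb3f/f replicates 1 to 4 and 779, 246, 143 and 719 CPM in Erbb3d/d replicates 1 to 4. Erbb3d/d replicates 1 and 4 were the highest of all libraries, while replicates 2 and 3 lay within the Erbb3f/f range. Its mean was 1.79 times as high in Erbb3d/d, a log2 fold change of 0.84 (SE 0.57) that did not exceed the spread between replicates (edgeR, adjusted p = 0.600). Myh11, the smooth muscle myosin heavy chain, was also highest in Erbb3d/d replicates 1 and 4, at 864 and 540 CPM. It was lowest in Erbb3f/f replicates 3 and 4, at 119 and 191 CPM, where Igfbp3 was low as well, but it stood at 356 CPM in Erbb3d/d replicate 3, where Igfbp3 was also low. Fitted beside the mean of the 12 smooth muscle markers, Igfbp3 had a log2 fold change of -0.98 (SE 0.44; edgeR, adjusted p = 0.617), the opposite direction.

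**Figure D3:**
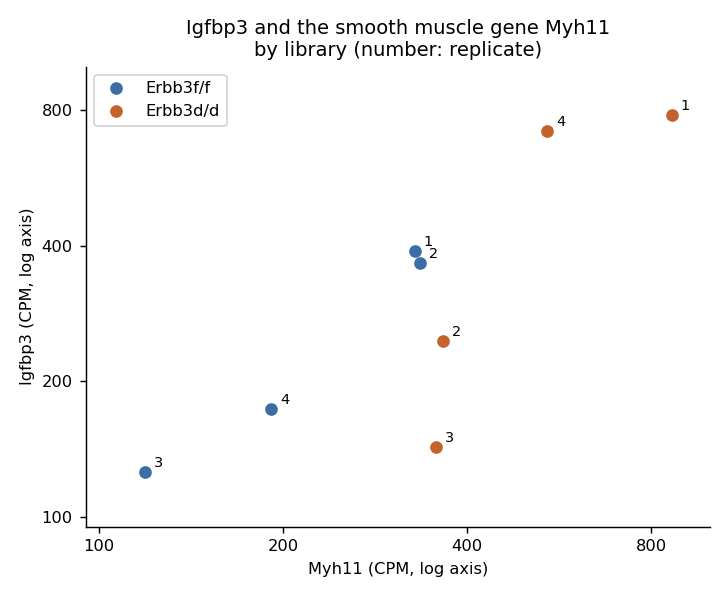
Igfbp3 (y axis) against Myh11 (x axis) in CPM on log axes, 1 point per library with its replicate number. Erbb3d/d replicates 1 and 4 are high in both genes, Erbb3f/f replicates 3 and 4 are low in both, and Erbb3d/d replicate 3 is low in Igfbp3 only.

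The remaining binding proteins overlapped between the genotypes. Igfbp6, which binds IGF2 more tightly than IGF1, lies on chromosome 15 at 102144362 to 102149511. Its levels were 332, 236, 306 and 316 CPM in Erbb3f/f replicates 1 to 4 and 365, 222, 228 and 222 CPM in Erbb3d/d replicates 1 to 4. Erbb3d/d replicate 1 stood well above the other 3 Erbb3d/d libraries, which were slightly below every Erbb3f/f library. With all libraries the log2 fold change was -0.20 (SE 0.18; edgeR, adjusted p = 0.699), and without that library it was -0.41. Fitted beside the smooth muscle mean, Igfbp6 had -0.51 (SE 0.24; edgeR, adjusted p = 0.626).

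Igfbp7 encodes a secreted protein that resembles the other binding proteins but has low affinity for IGF, and lies on chromosome 5 at 77349240 to 77408041. Levels of Igfbp7 were 727, 684, 690 and 858 CPM in Erbb3f/f replicates 1 to 4 and 707, 788, 598 and 555 CPM in Erbb3d/d replicates 1 to 4. Erbb3d/d replicates 3 and 4 lay below all Erbb3f/f libraries, and replicates 1 and 2 lay within their range. A log2 fold change of -0.16 (SE 0.13) resulted (edgeR, adjusted p = 0.667). Igfbp7 shares 85 of its 1209 exonic bases with Polr2b on the other strand, and the libraries were not directional.

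Igfbp2 was scarce, with a lower mean CPM than Igf2 in both genotypes (3.92 against 9.76 in Erbb3f/f, 3.03 against 10.4 in Erbb3d/d). It lies tail to tail with the abundant Igfbp5, with 5457 bases between them on chromosome 1. Only 64, 44, 36 and 18 reads were assigned to it in the Erbb3f/f libraries (replicates 1 to 4), and 21, 58, 32 and 9 in the Erbb3d/d libraries. At 0.789 to 6.76 CPM, both genotypes covered much the same range. Its log2 fold change of -0.39 had an SE of 0.58 (edgeR, adjusted p = 0.825), a difference within the spread between libraries. Leaving out 1 library gave -1.12 (without Erbb3d/d replicate 2) to -0.067 (without Erbb3d/d replicate 4).

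As a set, the 10 genes gave 0 calls at the 0.05 threshold of edgeR's adjusted p, where 0% of all genes were called. At an unadjusted p under 0.05 there was 1 higher (Igf1r, background 6.64%) and 1 lower (Igf1, background 4.97%). DESeq2 called 1 of the 10, Igf1, where it called 1.78% of the genes to which it gave an adjusted p. The median log2 fold change was -0.18 over the 10 genes and -0.01 over all genes tested, and the median size regardless of sign was 0.33 and 0.16. Of the 6 binding proteins, 5 had a log2 fold change below 0 against 52.0% of all genes tested, and beside the stromal mean all 5 were above 0.

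**Figure D4:**
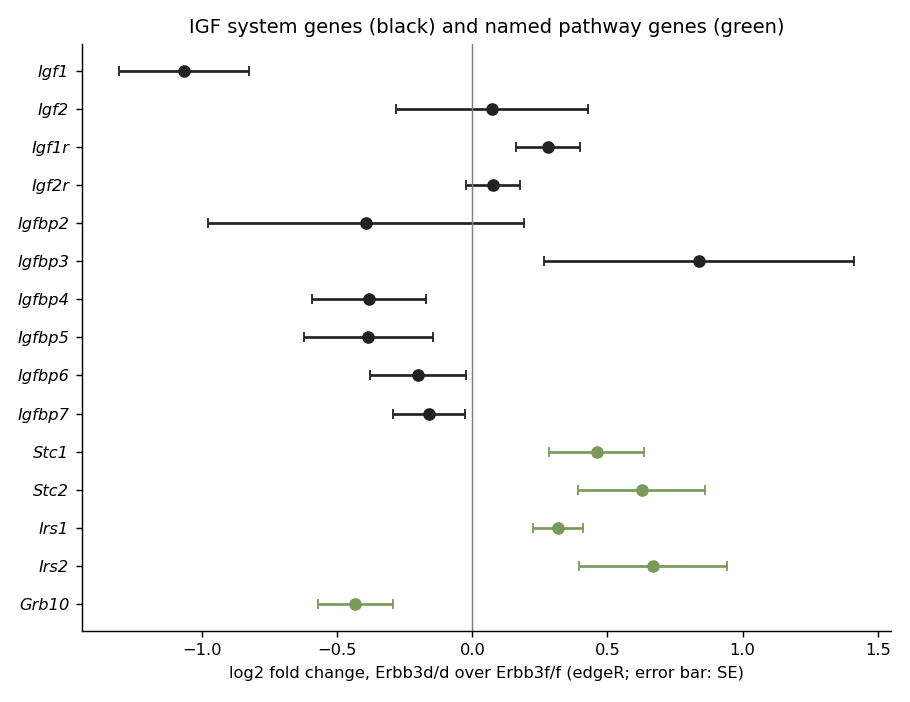
Log2 fold change (Erbb3d/d over Erbb3f/f, x axis, error bars SE) from edgeR for the 10 IGF system genes in black and 5 pathway genes in green (y axis). Igf1 lies farthest below 0 (-1.07), and Igfbp3 has the highest value of the 10 (0.84) with an SE of 0.57.

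The balance of ligand and binding protein transcripts was read per kilobase of exon, and protein was not measured. The sum counts all 6 binding proteins alike, including Igfbp7, with its low affinity for IGF, and Igfbp6, which binds IGF2 more tightly than IGF1. The summed level of the 6 binding proteins was 2171, 2012, 2352 and 2410 CPM per kb in Erbb3f/f replicates 1 to 4 and 2243, 2175, 1742 and 1469 CPM per kb in Erbb3d/d replicates 1 to 4. Erbb3d/d replicates 1 and 2 were within the Erbb3f/f range, and replicates 3 and 4 were below it. For each 100 units of binding protein transcript there were 6.52, 7.89, 7.83 and 6.10 units of Igf1 in Erbb3f/f replicates 1 to 4. In Erbb3d/d replicates 1 to 4 there were 3.54, 4.99, 4.10 and 2.86 units, below the Erbb3f/f range in all 4 libraries. Igf1 alone was also below its Erbb3f/f range in all 4. Within the binding proteins Igfbp4 held 44.0% ± 3.05 in Erbb3f/f and 39.3% ± 6.29 in Erbb3d/d, and Igfbp7 held 27.4% ± 2.20 and 28.9% ± 2.22 (SD, n = 4 each). Igfbp3 held 3.89% ± 2.19 in Erbb3f/f against 8.24% ± 6.22, with overlapping ranges of 1.70% to 5.82% and 2.62% to 15.6%.

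Of 27 other genes of the pathway, 21 passed the filter on low counts, and edgeR called 0 of them after adjustment. At an unadjusted p under 0.05 there were 4 higher, where 6.64% of all genes were, and 1 lower, where 4.97% were, and 1 gene had genotypes that did not overlap, in the direction in which 2.57% of all genes did so. The genes that control IGF availability were tested for 4 of 8 members. Pappa, which encodes the pappalysin protease that cleaves Igfbp4 and Igfbp5 proteins, was read at 111 to 215 CPM in Erbb3f/f and at 90.6 to 168 CPM in Erbb3d/d (log2 fold change -0.42, SE 0.25). The stanniocalcins Stc1 and Stc2 inhibit that protease, and both had an unadjusted p under 0.05. Stc1 averaged 34.5 ± 5.80 CPM in Erbb3f/f against 47.4 ± 10.5 CPM (SD, n = 4 each), or 0.46 on the log2 scale (SE 0.18; edgeR, adjusted p = 0.367). Stc2 averaged 9.86 ± 1.18 against 15.2 ± 4.71 CPM (SD, n = 4 each), or 0.63 on the log2 scale (SE 0.24; edgeR, adjusted p = 0.356). Both were highest in Erbb3d/d replicate 3, and without Erbb3d/d replicates 3 and 4 their log2 fold changes were 0.26 and 0.22, and beside the epithelial mean 0.10 and 0.38. Igfbp1, a marker of decidual cells in human endometrium, had 4 reads in Erbb3f/f replicate 1 and 0 in the other 7 libraries.

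Downstream of the receptor, Irs1 gave the clearest separation. Irs1 encodes a docking protein that is phosphorylated by the IGF1 and insulin receptors. Irs1 levels were 241, 253, 207 and 267 CPM in Erbb3f/f replicates 1 to 4 and 289, 309, 299 and 308 CPM in Erbb3d/d replicates 1 to 4. All Erbb3d/d libraries lay above all Erbb3f/f libraries, and the distance was small. On the log2 scale Irs1 was 0.32 higher (SE 0.093; unadjusted p = 0.00624; edgeR, adjusted p = 0.294), and 0.18 higher when fitted beside the epithelial mean. In the annotation 2822 of its 9144 exonic bases are shared with Gm9747 on the other strand, so part of this count may belong to that gene.

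Irs2, a related docking protein, was read at 26.9 to 40.9 CPM in Erbb3f/f and at 70.3, 34.0, 32.5 and 65.6 CPM in Erbb3d/d replicates 1 to 4 (log2 fold change 0.67, SE 0.27). Erbb3d/d replicates 1 and 4 were the high libraries, as for Igfbp3 and Myh11, and beside the smooth muscle mean the log2 fold change was 0.34. Grb10, an imprinted adaptor that restrains signalling from both receptors, was read at 399, 387, 326 and 308 CPM in Erbb3f/f and at 252, 336, 240 and 224 CPM in Erbb3d/d. Erbb3d/d replicate 2 was the 1 library that reached the Erbb3f/f range. Grb10 had a log2 fold change of -0.43 (SE 0.14), and edgeR's adjusted p was 0.311 over all libraries but 0.0401 without Erbb3d/d replicate 2. In that fit 0.785% of all genes were called as lower and 1.75% in either direction. Without Erbb3d/d replicates 3 and 4 the log2 fold change of Grb10 was -0.27. Insr, the insulin receptor, had a log2 fold change of 0.08 (SE 0.11).

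Among 5 genes that regulate Igf1, none had an unadjusted p under 0.05. Esr1, the oestrogen receptor that induces Igf1 in stroma, was read at 335, 437, 485 and 469 CPM in Erbb3f/f and at 370, 498, 541 and 387 CPM in Erbb3d/d, a log2 fold change of 0.06 (SE 0.15). All Erbb3d/d libraries lay within or above the Erbb3f/f range of Esr1. Whether the oestrogen receptor bears on the Igf1 difference was not tested. Ghr, the growth hormone receptor, had a log2 fold change of 0.31 (SE 0.14), and Stat5b, its transcription factor, one of 0.02 (SE 0.090). Pgr and Stat5a were lower in Erbb3d/d, the direction of Igf1, and their genotypes overlapped. Pgr ranged from 607 to 761 CPM in Erbb3f/f and from 418 to 642 CPM in Erbb3d/d (log2 scale: -0.32, SE 0.15). Stat5a ranged from 27.3 to 33.9 CPM in Erbb3f/f and from 21.9 to 30.1 CPM in Erbb3d/d (log2 scale: -0.20, SE 0.14). Whether Pgr or Stat5a bears on the Igf1 difference was not tested.

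The 5 genes with the profile most like that of Igf1 were Hhipl1, Map2, Crispld1, Gria4 and Pfn2. They were taken from 11038 genes with a mean of at least 10 CPM, by the root mean square difference of log2 levels centred over the 8 libraries. That difference was 0.181 for Hhipl1, 0.190 for Map2, 0.199 for Crispld1, 0.211 for Gria4 and 0.222 for Pfn2, where Igf1 itself departs from a flat line by 0.675. All of them were read from the same libraries and share their depth and cell makeup. Map2, which encodes a microtubule-associated protein, was read at 367, 375, 439 and 327 CPM in Erbb3f/f replicates 1 to 4 and at 206, 365, 168 and 89.0 CPM in Erbb3d/d replicates 1 to 4. Its value in Erbb3d/d replicate 2 was within the Erbb3f/f range, while Igf1 was below the range there. Crispld1, which encodes a secreted cysteine-rich protein, averaged 65.6 ± 3.07 CPM in Erbb3f/f against 35.1 ± 11.0 CPM (SD, n = 4 each). The genotypes did not overlap for Crispld1 or, by a narrow margin (176 against 175 CPM), for Gria4. Over all genes tested, 2.48% had all Erbb3d/d libraries below all Erbb3f/f libraries. Choosing genes for likeness to Igf1, which did not overlap itself, favours lower Erbb3d/d levels and such a separation, so neither adds a separate result. In each of the 5 genes, as in Igf1, Erbb3d/d replicate 2 was the highest Erbb3d/d library and replicate 4 the lowest, an order that choosing them for likeness over these 8 values largely sets.

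**Figure D5:**
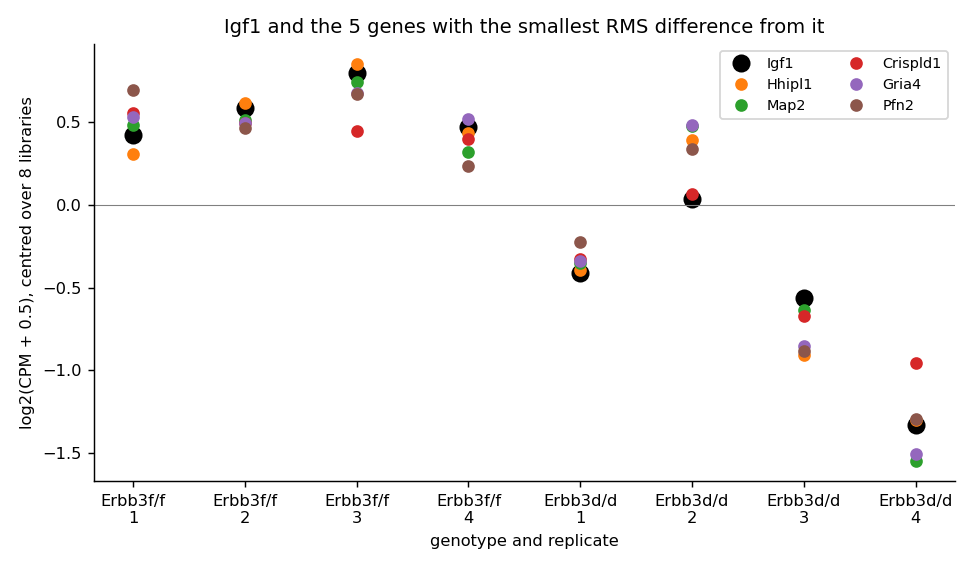
Log2(CPM + 0.5) centred over the 8 libraries (y axis) for Igf1 (large black points) and the 5 genes with the smallest root mean square difference from it, by genotype and replicate (x axis). All 6 genes lie above 0 in the 4 Erbb3f/f libraries and below 0 in Erbb3d/d replicates 1, 3 and 4, and they lie above 0 in replicate 2.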

How the data were processed

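The authors deposited 1 table of raw read counts per gene symbol for each library, and the submitters' processing notes name HISAT2, SAMtools, HTSeq and StringTie with the builds mm10 and GRCm38. Annotation and counting options are not given in the sources used here. Per the labels' protocols, libraries were poly(A)-selected, non-directional and read as pairs of 150 bp. The 5 closing lines without a gene (70.9% to 73.0% of entries) were left out. Counts were fitted across all genes in edgeR 4.0.16 (R 4.3.3) with filterByExpr, TMM scaling and the robust quasi-likelihood test, and p-values were adjusted by Benjamini-Hochberg at 0.05. Alternatives were DESeq2 1.42.0, RLE and upper quartile scaling, no filter beyond 1 read, the replicate number as a block, marker means as covariates, and leaving out libraries. CPM uses TMM-scaled totals, and log2 levels add 0.5. Exon lengths are merged exons of GENCODE vM21, in which 92.8% of symbols matched 1 gene. Promoter windows are RefSeq's.

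On simulated counts, edgeR recovered 90.5% of 200 genes changed 2-fold and 99.5% of 200 changed 4-fold. In the real counts it called 0% of genes, although 0.891% had a log2 fold change of -1 or less. Whether the simulated spread equals that between these libraries was not tested, so the recovered shares cannot be read as the power here. The 10 genes and the lists were chosen with earlier results of these data known. Named by rule were Erbb3, the 10 genes, pathway genes with an unadjusted p under 0.05 or genotypes that do not overlap, the 5 genes most like Igf1, and the markers. The pathway genes Pappa, Igfbp1, Insr, H19, Esr1, Ghr, Stat5a, Stat5b and Pgr were described outside this rule. The 6 marker lists were epithelial, smooth muscle, endothelial, immune, uterine stromal and cell cycle genes. The last 4 had median log2 fold changes of 0.19, 0.11, -0.24 and 0.55.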

Additional observations from a re-analysis of the deposited data

Results flagged for a closer look

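Igfbp6 in Erbb3d/d replicate 1, at 365 CPM, lay far above its group, where the next highest value was 228 CPM. The gap was 0.958 of the group's whole range, above the 0.829 that marks a distant value among 4. Of 42 groups of 4 values examined, 1 was marked, and 2.1 would be expected at 1 in 20. The same library had the highest level of Myh11 (864 CPM). Fitted beside the smooth muscle mean, Igfbp6 had a log2 fold change of -0.51 (SE 0.24), against -0.20 without that term.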

How the results depend on the processing

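The count of genes called in edgeR, 0 with all 8 libraries, was 270 with DESeq2 and 52 with the replicate number as a block, and leaving out 1 library gave 0 to 259 (259 without Erbb3d/d replicate 2, 0 without any other single library). The 10 IGF genes gave 1 call, Igf1, with DESeq2, and 0 to 1 when 1 library was left out. The block called 0 of the 10, with a log2 fold change of -1.14 for Igf1 (SE 0.20; edgeR, adjusted p = 0.0774). Same-numbered libraries correlated in their deviations at 0.241, 0.172, 0.0998 and 0.152, and 3 of 4 Erbb3f/f libraries correlated best with their own number. As 1 pair was under 0.1 and the labels state no pairing, the numbers were not taken as pairs. These correlations do not exclude pairing. Igf1, Igf1r and all 5 named pathway genes kept their direction in all 17 alternatives. Fitted beside the epithelial mean, log2 fold changes turned to -0.021 for Igf2r, 0.12 for Igfbp2 and 0.11 for Igfbp5, and beside the smooth muscle mean to -0.98 for Igfbp3. Beside the stromal mean they turned to -0.068 for Igf2r, 0.028 for Igfbp2, 0.075 for Igfbp4, 0.046 for Igfbp5, 0.033 for Igfbp6 and 0.084 for Igfbp7. Without Erbb3d/d replicates 3 and 4 they turned to -0.047 for Igf2r, 0.16 for Igfbp2 and 0.018 for Igfbp7. That of Igf2 was 0.92 beside the epithelial mean and ran from -0.23 to 0.48 when 1 library was left out, with -0.090 without Erbb3f/f replicate 2, -0.041 without Erbb3f/f replicate 4 and -0.23 without Erbb3d/d replicate 1. Scaling by RLE or upper quartile and the filter turned no direction among the 15 genes. The cause of these turns was not tested. Igfbp2 rests on 9 to 64 reads per library and Igf2 on 57 to 214, and whether depth sets their spread was not tested.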
